A study of Homo sapiens with 18 samples.

Results

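The genes described are 9 poly(ADP-ribose) polymerase genes, PARP1, PARP2, PARP3, PARP4, PARP8, PARP9, PARP10, PARP12 and PARP14, together with PARG, the glycohydrolase that cleaves poly(ADP-ribose) chains. They were taken by gene symbol from the deposited table, which holds 25296 genes, and all 10 were found once and passed the filter on low counts. RNA came from U2OS, an established human osteosarcoma line, in 3 derivatives. One carried the empty retroviral vector MigR1 (EV), one overexpressed wild-type DNMT3A (WT) and one overexpressed a mutant DNMT3A (MUT), a DNA methyltransferase. The sample labels name the mutation R882H and the series text names it R882C, and only the word mutant is used from here on. Each derivative was sampled without drug and after 24 h in 10 µM cytarabine, and every one of the 6 groups has 3 biological replicates. The labels call the first group untreated and the series text calls it a vehicle control. Cytarabine is a nucleoside drug that, once incorporated, blocks the extension of new DNA strands. Whether a derivative is a clone or a pool of cells is not given, and each DNMT3A construct is represented by a single line, so a difference between lines and a difference between constructs cannot be told apart.

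ADP-ribosyltransferases move ADP-ribose from NAD+ to proteins or nucleic acids. PARP1 and PARP2 bind broken DNA and build poly(ADP-ribose) chains that recruit repair proteins, while PARG takes those chains apart. PARP3 also acts at DNA breaks, and PARP4 is a component of the vault particle. PARP8, PARP10, PARP12 and PARP14 attach single ADP-ribose units, and PARP9 works as a complex with the ubiquitin ligase DTX3L. PARP9, PARP10, PARP12 and PARP14 are known as interferon-stimulated genes.

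Library totals ran from 15.4 to 21.9 M estimated counts. Levels are given as CPM, which are counts per 1 M counts of the library after scaling with TMM, a trimmed mean that makes libraries comparable. DNMT3A, which checks the labels, lay between 26.2 and 27.5 CPM in untreated EV, between 129 and 139 CPM in untreated WT and between 254 and 615 CPM in untreated MUT, with no overlap between lines. The untreated MUT libraries were also the least alike over all genes, with a biological coefficient of variation of 0.216 against 0.0397 in untreated EV, 0.0398 in untreated WT and 0.132 in treated EV. Of 10 osteoblast markers, SPARC (805 CPM or more in every library), RUNX2 (29.6 CPM or more) and COL1A1 (60.8 CPM or more) were well detected. ALPL ran from 6.27 to 15 CPM, MSX2 from 5.19 to 12 CPM, COL1A2 from 0.292 to 8.11 CPM and SPP1 from 0.375 to 1.35 CPM. BGLAP and DLX5 were at or below 0.437 CPM, and SP7 is not listed. Of 14 markers of blood, epithelial, endothelial and liver cells 13 are listed, each at or below 6.37 CPM, and CD14, HBB, PECAM1, ALB and APOA1 were among those at 0 in at least 1 library. Their summed level was 10.7 to 11.3 CPM in untreated EV and 17.0 to 18.9 CPM in treated EV. The untreated and treated ranges were 5.39 to 6.18 and 8.72 to 10.1 CPM in WT, and 9.71 to 12.7 and 17.5 to 24.6 CPM in MUT. It was thus higher with cytarabine in each line, and its part in the results given here was not tested. In bulk RNA, a change in the share of cells that express a gene and a change in RNA per cell cannot be told apart.

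Promoter sequences are shown for PARP9, PARP12 and PARP14, which are known as interferon-stimulated genes, and for PARP1, which fell with cytarabine in every line. RefSeq windows on GRCh38.p14, from 250 bases before to 50 bases after an annotated start, were searched for 8 of the members. PARP4 and PARP10, the latter also known as interferon-stimulated, were not searched, so nothing is said of motifs in their promoters. Both strands were searched for the core of the interferon-stimulated response element, GAAANNGAA, which was present in 8.11% of all 35116 windows. It was found in the windows of PARP9, PARP12 and PARP14, and in no window of PARP1, PARP2, PARP3, PARP8 or PARG. Each sequence is printed 5′ to 3′ on its gene's strand with matches in capitals, namely this core, the gamma-activated site TTCNNNGAA in PARP14 and the E2F motif TTTCCCGC in PARP12. The PARP9 window is chr3:122564251-122564550 on the minus strand, that of PARP14 chr3:122680589-122680888 on the plus strand, that of PARP12 chr7:140062902-140063201 on the minus strand and that of PARP1 chr1:226408044-226408343 on the minus strand.
PARP9: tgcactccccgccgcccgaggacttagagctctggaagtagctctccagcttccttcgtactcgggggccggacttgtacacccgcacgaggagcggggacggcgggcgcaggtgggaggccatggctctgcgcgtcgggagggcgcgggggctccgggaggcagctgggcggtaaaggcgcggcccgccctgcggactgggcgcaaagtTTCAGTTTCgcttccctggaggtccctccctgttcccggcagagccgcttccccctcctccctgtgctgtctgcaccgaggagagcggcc
PARP14: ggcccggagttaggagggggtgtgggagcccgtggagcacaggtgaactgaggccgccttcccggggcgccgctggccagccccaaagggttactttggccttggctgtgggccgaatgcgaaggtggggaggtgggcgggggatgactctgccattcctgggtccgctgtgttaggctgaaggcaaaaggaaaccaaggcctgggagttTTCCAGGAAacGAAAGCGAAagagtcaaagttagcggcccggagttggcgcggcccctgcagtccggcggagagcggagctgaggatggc
PARP12: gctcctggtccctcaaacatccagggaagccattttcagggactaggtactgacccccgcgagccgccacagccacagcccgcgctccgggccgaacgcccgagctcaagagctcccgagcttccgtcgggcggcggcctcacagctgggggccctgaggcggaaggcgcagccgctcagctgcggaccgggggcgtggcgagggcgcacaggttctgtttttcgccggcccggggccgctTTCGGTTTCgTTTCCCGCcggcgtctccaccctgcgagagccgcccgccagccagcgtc
PARP1: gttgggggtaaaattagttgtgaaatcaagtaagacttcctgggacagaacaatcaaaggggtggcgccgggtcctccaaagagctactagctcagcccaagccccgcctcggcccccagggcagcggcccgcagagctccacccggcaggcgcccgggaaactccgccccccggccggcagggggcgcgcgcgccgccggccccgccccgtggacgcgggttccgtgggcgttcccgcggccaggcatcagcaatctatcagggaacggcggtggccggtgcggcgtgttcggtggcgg

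In PARP14 the core begins at position -29 from the annotated start and lies beside the gamma-activated site at -40. In PARP12 it begins at -9, next to the E2F motif at 2. The gamma-activated site was present in 7.66% of all windows and also occurs in PARP2, at -154. Of all windows 2.27% held TTTGGCGC or TTTCCCGC, the E2F forms searched. In PARP9 the core begins at -40 and occupies chromosome 3 from 122564332 to 122564340, on the strand opposite to the gene. The same 9 bases, read on the other strand, begin at -6 in the window of DTX3L, which is transcribed away from PARP9 from a nearby start. A second PARP9 window, from 122564735 to 122565034, held no match to any of these motifs. A match of letters is a description and does not show that a factor binds there.

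Of the genes that act at DNA breaks, PARP1 fell with cytarabine in all 3 lines, PARP3 rose in all 3 and PARP2 passed the test in none. PARP1 (chromosome 1, 226360691 to 226408080, minus strand, protein-coding) had 356, 371 and 381 CPM in untreated EV and 242, 257 and 240 CPM in treated EV. WT went from 321, 309 and 326 CPM to 238, 250 and 240 CPM, and MUT from 342, 374 and 299 CPM to 240, 244 and 252 CPM. Every treated library lay below every untreated library, and the 9 treated values fell within 238 to 257 CPM whatever the line. The log2 fold change was -0.58 in EV (SE 0.0699, 95% interval -0.73 to -0.44), -0.39 in WT (SE 0.0698, -0.54 to -0.25) and -0.46 in MUT (SE 0.0698, -0.61 to -0.32). The adjusted p-values were 1.3e-06, 1.1e-04 and 1.5e-05 in the edgeR quasi-likelihood test. Expressed as folds, PARP1 was 1.5, 1.31 and 1.38 times lower after treatment.

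PARP3 (chromosome 3, 51942345 to 51948868, plus strand, protein-coding) had 14.6, 14.9 and 17.9 CPM in untreated EV and 27.9, 19.0 and 26.1 CPM in treated EV. It had 21.7, 22.2 and 20.8 CPM in untreated WT against 32.6, 35.1 and 35.8 CPM after treatment. In MUT the values were 16.3, 10.6 and 14.0 CPM without drug and 20.5, 23.6 and 23.4 CPM with it. Treated and untreated libraries did not overlap in any line, although the second treated EV library lay only just above the highest untreated one. The log2 fold changes of 0.63, 0.68 and 0.71 (SE 0.140, 0.135 and 0.141) corresponded to rises of 1.55, 1.60 and 1.64 times, with adjusted p of 0.00101, 3.4e-04 and 2.8e-04 in edgeR.

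PARP2 (chromosome 14, 20343582 to 20357906, plus strand, protein-coding) stayed between 42.0 and 55 CPM in all 18 libraries. Its log2 fold changes had 95% intervals of -0.18 to 0.12 in EV, -0.02 to 0.28 in WT and -0.0029 to 0.29 in MUT, with adjusted p of 0.744, 0.130 and 0.0884. The MUT value passed without untreated MUT replicate 1 or with upper-quartile factors (adjusted p 0.0203 and 0.0399 in edgeR), and the WT value in a fit of the WT libraries alone (0.0462). PARP4 (chromosome 13, 24420926 to 24512811, minus strand, protein-coding) lay between 62.5 and 85.5 CPM. In EV it went from 79.5, 82.3 and 80.5 CPM to 62.9, 74.8 and 72.9 CPM, without overlap, but the log2 fold change of -0.20 (SE 0.0890) had an adjusted p of 0.0667 in edgeR. That value passed in DESeq2, in a fit of the EV libraries alone and with the authors' factors (adjusted p 0.0448, 0.0289 and 0.00721). It also passed without treated EV replicate 2 or any single untreated MUT library, with adjusted p of 0.00835 to 0.0467 in edgeR. For WT and MUT the PARP4 intervals were -0.21 to 0.17 and -0.15 to 0.22.

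**Figure D1:**
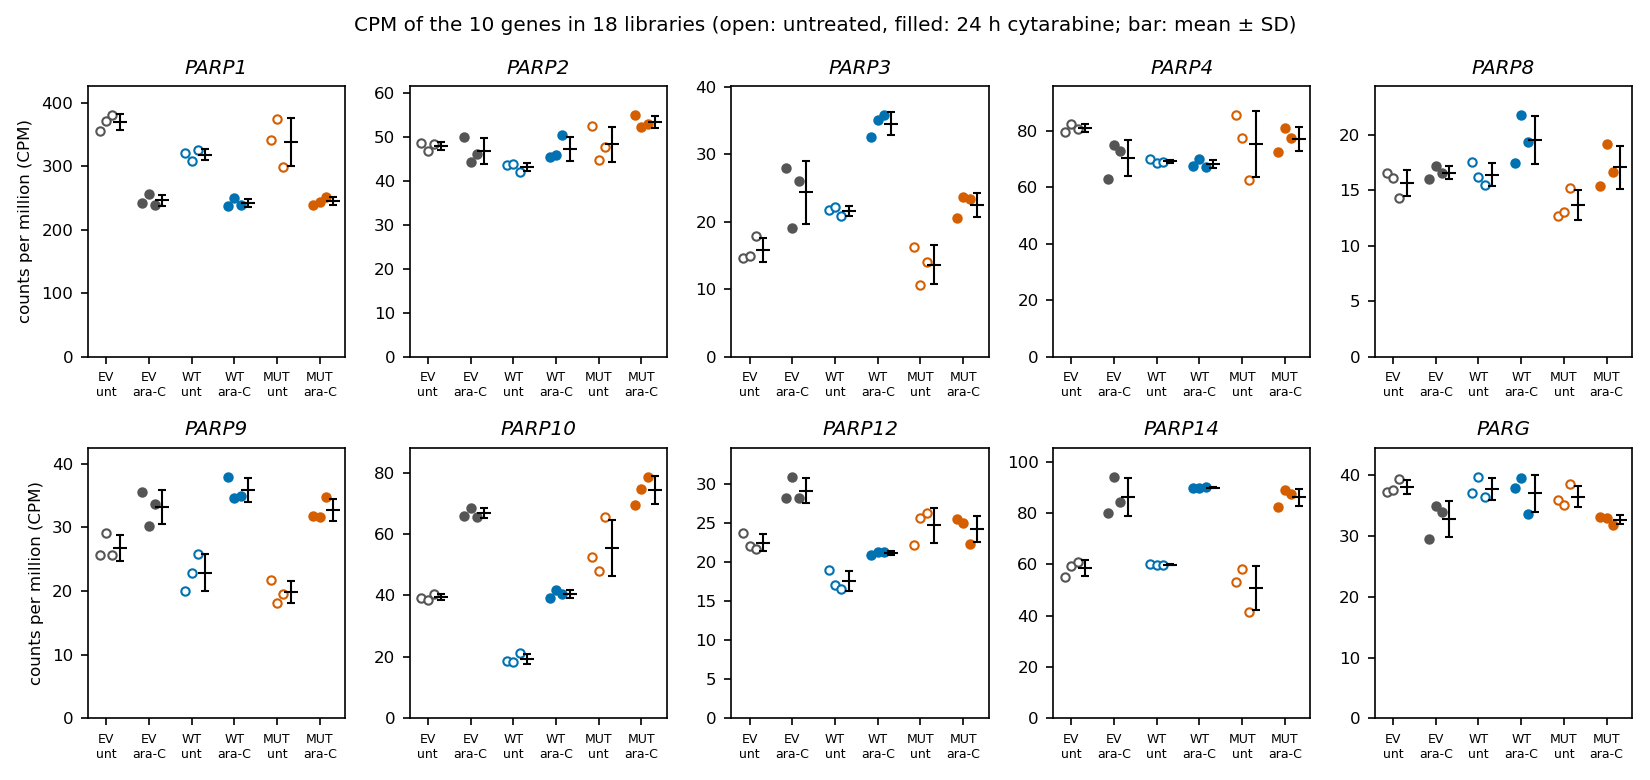
Level of each of the 10 genes in CPM (vertical axes, starting at 0) in the 18 libraries, by line and treatment, with open points for untreated and filled points for treated libraries and bars for the mean ± SD of 3. PARP1 falls to between 238 and 257 CPM in all treated libraries, while PARP10 differs between lines in both conditions.

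PARP9, PARP10 and PARP14 rose with cytarabine in all 3 lines. PARP14 (chromosome 3, 122680618 to 122730841, plus strand, protein-coding), a large transferase with macrodomains that bind ADP-ribose, had 55, 59.5 and 60.9 CPM in untreated EV and 80.2, 94.3 and 84.4 CPM in treated EV. In WT it went from 60.1, 59.8 and 59.7 CPM to 89.7, 89.9 and 90.3 CPM. MUT had 53.2, 58.1 and 41.3 CPM before and 82.5, 88.9 and 87.4 CPM after. All 9 treated libraries exceeded all 9 untreated ones. The rises were 1.47, 1.5 and 1.70 times (log2 fold change 0.56, 0.59 and 0.76, SE 0.0916, 0.0910 and 0.0918, adjusted p 4.7e-05, 2.5e-05 and 9.3e-07 in edgeR). The MUT value ranged from 0.60 to 0.83 when single libraries were left out.

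PARP9 (chromosome 3, 122527924 to 122564578, minus strand, protein-coding) had 25.6, 29.2 and 25.7 CPM in untreated EV and 35.6, 30.3 and 33.7 CPM in treated EV. Its values in WT were 20.0, 22.8 and 25.8 CPM before and 38.0, 34.6 and 34.9 CPM after. In MUT they were 21.7, 18.2 and 19.6 CPM before and 31.8, 31.6 and 34.8 CPM after. No treated library of PARP9 overlapped the untreated libraries of its line, and the gap was narrowest in EV. The rise was 1.24 times in EV, 1.57 times in WT and 1.65 times in MUT (log2 fold change 0.31, 0.65 and 0.72, SE 0.0972, 0.0972 and 0.0984, adjusted p 0.0126, 1.7e-05 and 4.5e-06 in edgeR). The call in EV was lost without treated EV replicate 1 or untreated EV replicate 1 or 3 (adjusted p 0.0541 to 0.0571) and with the authors' factors (0.0532). DTX3L (chromosome 3, 122564238 to 122575204, plus strand), the partner of PARP9, averaged 88.2 ± 5.35 CPM (SD, n = 3) in untreated and 95.5 ± 7.90 in treated EV. The pairs of means were 93.0 ± 1.95 and 119 ± 2.68 in WT, and 85.0 ± 3.39 and 111 ± 1.36 in MUT. Its log2 fold changes were 0.11, 0.35 and 0.38, and the adjusted p-values were 0.168, 1.9e-04 and 6.1e-05 in edgeR. The genes overlap by 341 bases on opposite strands. Whether the counting used strand is not given, so reads from that stretch may have been given to either.

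PARP10 (chromosome 8, 143977153 to 144012773, minus strand, protein-coding), a single-unit transferase, had 39.1, 38.6 and 40.6 CPM in untreated EV and 66.0, 68.6 and 65.6 CPM in treated EV. WT cells held 18.6, 18.3 and 21.1 CPM before and 39.2, 41.9 and 40.4 CPM after cytarabine. MUT cells held 52.4, 48.0 and 65.6 CPM before and 69.5, 74.6 and 78.7 CPM after. Treated WT libraries thus reached only the level of untreated EV libraries. The rise was 1.69 times in EV, 2.10 times in WT and 1.34 times in MUT (log2 fold change 0.76, 1.07 and 0.42, SE 0.0907, 0.0957 and 0.0885, adjusted p 1.3e-06, 3.3e-08 and 4.4e-04 in edgeR). GRINA overlaps PARP10 by 3359 bases on the opposite strand, so the PARP10 counts are uncertain where reads could be given to either gene. The log2 fold changes of GRINA were 0.26, 0.33 and 0.17, with adjusted p of 0.00470, 8.2e-04 and 0.0538 in edgeR.

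PARP12 (chromosome 7, 140023744 to 140063722, minus strand, protein-coding), another single-unit transferase, had 23.8, 22.1 and 21.7 CPM in untreated EV and 28.2, 31.0 and 28.3 CPM in treated EV. WT went from 19.0, 17.1 and 16.6 CPM to 20.9, 21.3 and 21.3 CPM. MUT libraries overlapped, with 22.2, 25.7 and 26.3 CPM before and 25.5, 25.0 and 22.3 CPM after. PARP12 rose by a log2 fold change of 0.37 in EV (SE 0.0864, adjusted p 0.00158, edgeR) and 0.27 in WT (SE 0.0881, adjusted p 0.0155). In MUT the value was -0.03 with a 95% interval of -0.21 to 0.15. The WT call was lost without untreated WT replicate 2 or 3 (adjusted p 0.0566 to 0.0742) and with the authors' factors (0.0686). PARP8 (chromosome 5, 50665899 to 50846523, plus strand, protein-coding) lay between 12.7 and 21.8 CPM. In MUT it rose from 12.7, 13.1 and 15.2 CPM to 15.4, 19.2 and 16.7 CPM (log2 fold change 0.32, SE 0.109, adjusted p 0.0170, edgeR). This call was lost without treated MUT replicate 2 or untreated MUT replicate 1 or 2 (adjusted p 0.0738 to 0.107), in a fit of the MUT libraries alone (0.0776) and with the authors' factors (0.0783). In WT the PARP8 value was 0.25 (SE 0.107, adjusted p 0.0601). It passed without untreated MUT replicate 3 or treated WT replicate 1 (adjusted p 0.0312 and 0.0388 as lowest and highest), and with upper-quartile factors, a stricter count filter or the WT libraries alone (0.0219 to 0.0270). In EV it was 0.08 (95% interval -0.15 to 0.31).

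PARG (chromosome 10, 49818279 to 49970204, minus strand, protein-coding) had 37.2, 37.6 and 39.4 CPM in untreated EV and 29.5, 34.9 and 34.0 CPM in treated EV. In WT the values were 37.1, 39.8 and 36.4 CPM before and 37.9, 39.6 and 33.6 CPM after, and the groups overlapped. MUT had 35.9, 35.1 and 38.5 CPM before and 33.2, 33.0 and 31.8 CPM after, with no overlap. PARG fell in EV by 0.21 on the log2 scale (SE 0.0785, adjusted p 0.0296, edgeR). The call was lost without treated EV replicate 1 or any single untreated EV library (adjusted p 0.0504 to 0.160), and with upper-quartile factors or a stricter count filter (0.123 and 0.0688). In MUT the value was -0.16 (SE 0.0781, adjusted p 0.0885). It passed with RLE factors, the authors' factors and DESeq2 (adjusted p 0.0335, 0.0111 and 0.0355), and without untreated MUT or WT replicate 2 (0.0291 and 0.0400). In WT the interval was -0.19 to 0.13. Reads of PARG could be shared with its pseudogene copy PARGP1, which held 13 to 48 counts per library. TIMM23B overlaps PARG by 28172 bases on the other strand and had log2 fold changes of -0.73, -0.46 and -0.65.

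**Figure D2:**
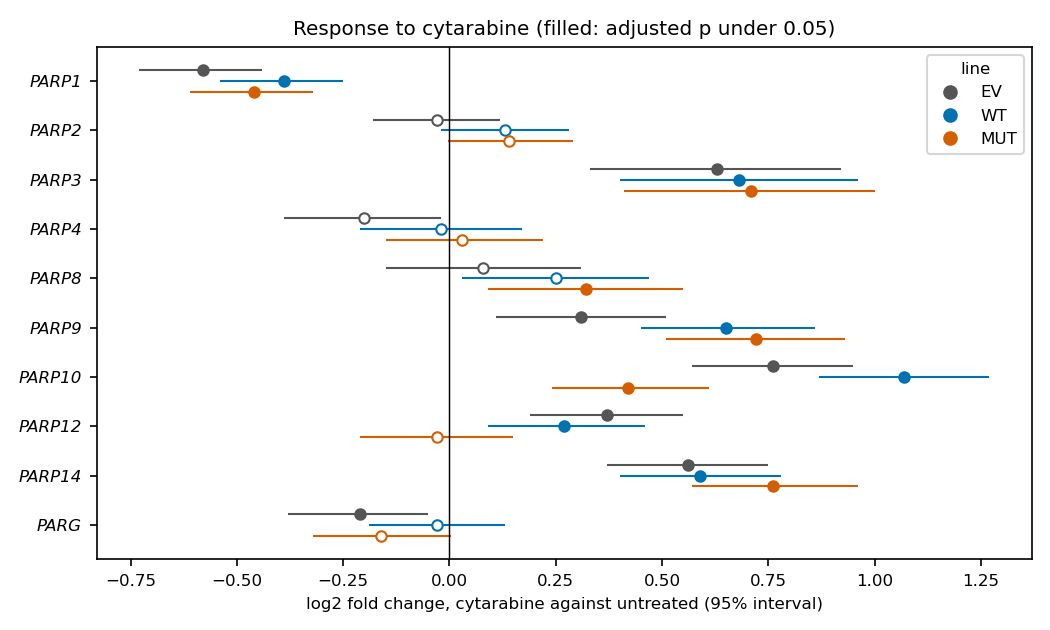
Log2 fold change of each gene with cytarabine (horizontal axis) in the EV, WT and MUT lines, with 95% intervals and filled points for an adjusted p under 0.05. PARP1 lies between -0.58 and -0.39, whereas PARP3, PARP9, PARP10 and PARP14 lie between 0.31 and 1.07 in every line.

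In all, the test called 7 of the 10 members in EV, 5 of them higher and 2 lower. It called 6 each in WT and MUT, with 5 higher and 1 lower in both lines. Over all 18226 tested genes, 49.1% were called in EV, 49.0% in WT and 56.3% in MUT, of which 26.1%, 26.3% and 30.4% of tested genes were higher and 22.9%, 22.7% and 25.9% lower. With so many genes called in every line, these shares of the members lie close enough to the background that they are no result about the family. Their median log2 fold change was 0.20, 0.26 and 0.23, against 0.05, 0.03 and 0.05 over all genes. PARP1, PARP3, PARP9, PARP10 and PARP14 were called in the same direction in every line. The share of all genes called in the same direction in all 3 lines is not given here, so this too is no result about the family. The 3 responses share no libraries, but their tests come from a single fit with a shared estimate of spread and are not independent.

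Between lines, PARP10, PARP12 and PARP3 differed most often, and PARP9 differed in 1 comparison. Without drug, 3 of 10 members differed between WT and EV, where 11.7% of all genes were called. Of the 3, 1 was higher in WT and 2 were lower, against 4.30% and 7.36% of all genes. Between MUT and EV 2 members differed, against 19.9% of all genes, with 1 higher (9.88%) and 1 lower (10.0%). Between MUT and WT 3 differed, against 21.2%, with 2 higher (11.7%) and 1 lower (9.54%). WT and EV, and MUT and EV, share the EV libraries, and both DNMT3A lines recur in the last comparison. Untreated PARP10 was 2.04 times lower in WT than in EV (log2 fold change -1.03, SE 0.0965, adjusted p 5.4e-07, edgeR). It was 1.40 times higher in MUT than in EV (0.49, SE 0.0913, adjusted p 9.3e-04), and 2.87 times higher in MUT than in WT (1.52, SE 0.0955, adjusted p 2.0e-09). No untreated library of one line overlapped another in PARP10, in the order WT, EV, MUT. GRINA differed in untreated WT against EV by -0.31 (adjusted p 0.00704, edgeR), and MUT differed by -0.15 from EV and by 0.16 from WT (adjusted p 0.159 and 0.119).

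Untreated PARP12 was also lowest in WT, at 17.5 ± 1.27 CPM (SD, n = 3) against 22.6 ± 1.13 in EV and 24.7 ± 2.21 in MUT. The differences were -0.36 for WT against EV (SE 0.0887, adjusted p 0.0104, edgeR) and 0.49 for MUT against WT (SE 0.0881, adjusted p 5.7e-04). That for WT against EV was lost without untreated EV replicate 1 or untreated WT replicate 3 (adjusted p 0.0602 to 0.0607). PARP3 ran the other way, at 21.5 ± 0.699 CPM in untreated WT against 15.8 ± 1.82 in EV and 13.7 ± 2.88 in MUT. The difference of -0.65 for MUT against WT (SE 0.142, adjusted p 0.00291) passed in every alternative run. The difference of 0.45 for WT against EV (SE 0.141, adjusted p 0.0453) was marginal. It was lost in 12 of the 18 fits that left out a library, with adjusted p of 0.0503 to 0.168, and with the authors' factors (0.0570), and held without treated EV replicate 1 or 2, untreated EV replicate 3 or any untreated MUT library. PARP9 was lower in untreated MUT than in EV, at 19.8 ± 1.73 against 26.8 ± 2.06 CPM (log2 fold change -0.43, SE 0.100, adjusted p 0.00474). In a fit of the compared groups alone neither PARP9 nor PARP10 passed for MUT against EV (adjusted p 0.0540 and 0.0502). Untreated PARP1 in WT differed from EV by less than the threshold asks, 319 ± 8.73 against 369 ± 12.2 CPM (adjusted p 0.0552), although the libraries did not overlap. It was called with RLE or the authors' factors, in DESeq2, in a fit of the compared groups alone and without untreated MUT replicate 2 or 3.

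**Figure D3:**
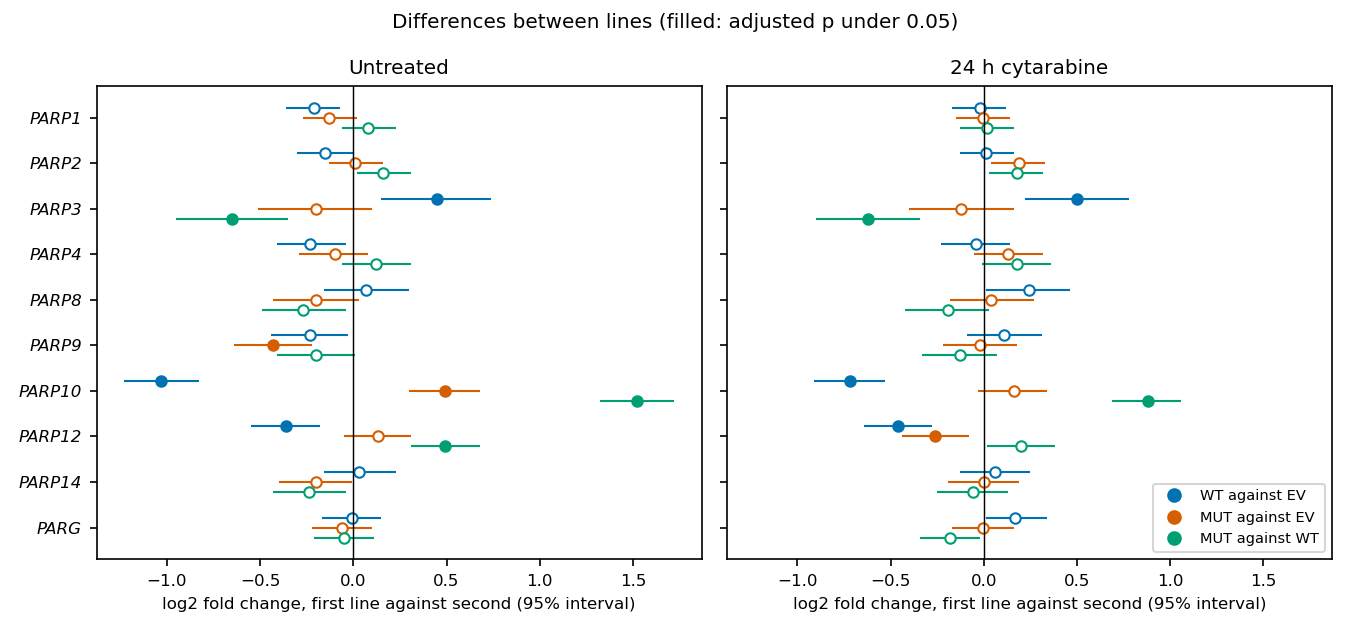
Log2 fold change between lines (horizontal axis, first line against second) for the 10 genes in untreated cells and after cytarabine, with 95% intervals and filled points for an adjusted p under 0.05. PARP10 spans -1.03 to 1.52 without drug and -0.72 to 0.88 with it, while PARP1 and PARP14 lie close to 0 after treatment.

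After cytarabine, 3 of 10 members differed between WT and EV, where 16.5% of all genes were called, with 1 higher (7.41% of all genes) and 2 lower (9.12%). A single member, lower in MUT, differed between MUT and EV, where 14.0% of all genes were called, 6.85% higher and 7.13% lower. Between MUT and WT 2 differed, against 19.8%, with 1 higher (10.4%) and 1 lower (9.48%). PARP10 was again lower in WT, with a log2 fold change of -0.72 against EV (SE 0.0898, adjusted p 1.7e-05, edgeR), and higher in MUT than in WT by 0.88 (SE 0.0894, adjusted p 1.3e-06). Its difference between MUT and EV was 0.16 (95% interval -0.03 to 0.34). GRINA had a log2 fold change of -0.24 against EV in both WT and MUT (adjusted p 0.0231 and 0.0273). PARP3 stayed higher in WT, with a log2 fold change of 0.50 for WT against EV (SE 0.134, adjusted p 0.0146) and of -0.62 for MUT against WT (SE 0.134, adjusted p 0.00266). The value against EV was lost without treated EV replicate 2 or treated WT replicate 2 or 3 (adjusted p 0.0523 to 0.0714). PARP12 was lower in WT than in EV (-0.46, SE 0.0859, adjusted p 0.00103). The lower value in MUT against EV (-0.26, SE 0.0850, adjusted p 0.0462) was lost in 15 of 18 fits that left out a library, with adjusted p of 0.0507 to 0.214, and held only when an untreated MUT library was left out. Treated PARP1 and PARP14 differed little between lines, with 95% intervals of -0.15 to 0.14 and -0.19 to 0.19 for MUT against EV.

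Whether the response to cytarabine itself depended on the line was tested with interaction contrasts. On the log2 scale PARP10 responded less in MUT than in WT, with a difference in log2 fold change of -0.64 (SE 0.130, 95% interval -0.92 to -0.37, adjusted p 0.0256, edgeR). It was the only member called among the 3 contrasts, where 1.00% of all genes passed for MUT against WT. In the contrasts with EV, 0.214% passed for MUT and 0.285% for WT. Before cytarabine the MUT libraries held 48.0 CPM or more and the WT libraries 21.1 CPM or less. The mean of PARP10 rose from 55.3 to 74.3 CPM in MUT and from 19.3 to 40.5 CPM in WT, which are rises of similar size in CPM. The call was lost without treated MUT replicate 1, treated WT replicate 2 or 3, or untreated WT replicate 1 or 2, with adjusted p of 0.0609 to 0.0816, and in a fit of the 4 groups compared (0.0863). Neither edgeR nor DESeq2 called a member in the contrasts with EV. At an unadjusted p under 0.05 edgeR gave 3 members for MUT and 2 for WT in these contrasts, and DESeq2 gave 3 in both. The shares of all genes above are for adjusted p. Those at the unadjusted threshold are not given here, so the unadjusted counts are no result about the members. The differences nearest to a call for MUT against EV were PARP12 at -0.39 (95% interval -0.65 to -0.14, adjusted p 0.146) and PARP9 at 0.41 (0.12 to 0.70, adjusted p 0.172). Leaving out untreated MUT replicate 1 gave a call for PARP12, and leaving out replicate 2 gave one for PARP10. PARP1 differed in response by 0.12 for MUT against EV (-0.08 to 0.33), -0.07 for MUT against WT (-0.27 to 0.14) and 0.19 for WT against EV (-0.02 to 0.40).

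Levels can be compared between the genes only per length. Divided by the length of merged exons in GENCODE 44, PARP1 was the highest of the 10 in untreated EV at 20.1 ± 0.661 CPM per kb (SD, n = 3), followed by PARP4 at 13.4 ± 0.240, PARP2 at 11.8 ± 0.235 and PARG at 7.38 ± 0.222. PARP10 (6.54 ± 0.168), PARP14 (5.69 ± 0.299), PARP3 (4.94 ± 0.569), PARP12 (4.09 ± 0.204), PARP9 (3.00 ± 0.230) and PARP8 (1.55 ± 0.117) came after. Only PARP14 and PARP3 were closer to each other than their summed SD. PARP1 made up 25.6% of the summed level of the 10 genes in untreated EV and 16.6% after cytarabine, 24.8% and 16.6% in WT, and 24.1% and 16.1% in MUT. Merged exons are long for PARP1 (18399 bases) beside its MANE Select transcript (3978 bases). With MANE Select lengths, chosen after the data were seen, the shares were 49.7% and 36.1% in EV, 49.1% and 36.4% in WT, and 47.6% and 35.1% in MUT. PARP2 then took the second place, and PARP1 had the highest and PARP8 the lowest mean of the 10 with both lengths in all 6 groups. With merged exons in treated MUT, PARP1 stood at 13.3 ± 0.343 CPM per kb. PARP2 (13.1 ± 0.344), PARP4 (12.7 ± 0.704) and PARP10 (12.3 ± 0.763) were each closer to it than the summed SD.

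Related genes were counted in 5 lists, each set beside all tested genes. Whether a response differed between lines was read from the interaction contrasts and not from the counts. Among 7 tested genes of the rest of the family, TIPARP, a single-unit transferase, rose in every line (log2 fold change 0.34, 0.41 and 0.42 in EV, WT and MUT) and PARP6 fell in every line (-0.28, -0.27 and -0.22). ZC3HAV1, a catalytically inactive member that binds viral RNA, had values of 0.07, 0.42 and 0.24 and was called in WT and MUT, and its difference in effect between lines had adjusted p of 0.245 or more (edgeR). The tankyrase gene TNKS had -0.18, -0.03 and 0.08 and was called in none. Of the 7, EV had 1 call upward and 1 downward, WT had 2 and 2, and MUT had 3 and 1, while 49.1%, 49.0% and 56.3% of all genes were called in these lines. The list medians were -0.18, -0.008 and 0.08, against 0.05, 0.03 and 0.05 over all genes. PARP15 was not tested, with at most 3 counts in any library.

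Of the 9 ADP-ribose erasers besides PARG, the EV, WT and MUT lines had 4, 4 and 1 upward calls beside 26.1%, 26.3% and 30.4% of all genes, and calls downward 2, 2 and 3, against 22.9%, 22.7% and 25.9%. The medians were 0.23, 0.24 and 0.05, against 0.05, 0.03 and 0.05 over all genes. The differences in effect between lines had adjusted p of 0.121 or more for all 9 erasers (edgeR, 5 of their values at an unadjusted p under 0.05). The share of all genes at that unadjusted threshold is not given here. ADPRH, an arginine-directed hydrolase, rose by 0.71, 1.00 and 1.10. OARD1, a macrodomain hydrolase, had values of -0.41, -0.57 and -0.65, and ADPRHL2, which removes serine-linked ADP-ribose, of -0.28, -0.27 and -0.50, all called. Among 15 PARP1 partners and single-strand break repair genes none was called higher in any line, where 26.1%, 26.3% and 30.4% of all genes were, and 6, 7 and 6 fell in EV, WT and MUT, where 22.9%, 22.7% and 25.9% of all genes did. Their medians were -0.16, -0.15 and -0.21, against 0.05, 0.03 and 0.05 over all genes. APTX, named after its values were seen, had a difference in effect of -0.45 for MUT against WT (SE 0.0883, adjusted p 0.0209, edgeR), and was the only gene of the 5 lists called in an interaction contrast. The largest mean falls over the 3 lines were those of APEX1, the abasic site endonuclease (-0.88, -0.75 and -0.89), and TDP1, which clears blocked DNA ends (-0.97, -0.58 and -0.88). XRCC1, the scaffold recruited by poly(ADP-ribose), had values of -0.05, 0.09 and 0.06, and HPF1, which directs PARP1 to serine, of -0.29, -0.27 and -0.25, none of them called (adjusted p 0.103 to 0.620).

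Among the 13 genes of NAD supply and use, calls upward numbered 6, 6 and 5 in the 3 lines in that order, against 26.1%, 26.3% and 30.4% of all genes, and calls downward 2, 4 and 2, against 22.9%, 22.7% and 25.9%. The medians of 0.14, 0.59 and 0.38 stood beside 0.05, 0.03 and 0.05 over all genes. NMNAT2, which makes NAD+ from its mononucleotide, rose by 1.79, 1.95 and 2.06, and QPRT, of the route from quinolinate, by 1.36, 1.24 and 1.48. NAPRT, of the route from nicotinic acid, changed by -1.06, -1.01 and -0.88. NAMPT, the rate-limiting enzyme of the salvage route, had -0.14, -0.20 and -0.13 and was called in WT alone (adjusted p 0.0490, edgeR), while its differences in effect between lines had adjusted p of 0.849 or more. Of 11 tested interferon signalling genes, including DTX3L, 2, 4 and 3 were called higher in these lines, against 26.1%, 26.3% and 30.4% of all genes, and 1, 0 and 1 lower, against 22.9%, 22.7% and 25.9%. The counts upward lie near that background, and the medians were 0.08, 0.14 and 0.20, against 0.05, 0.03 and 0.05. STAT2, a subunit of the factor that binds the response element, rose by 0.97, 0.84 and 0.97. IRF9, which is part of the same factor, had values of -0.07, 0.14 and 0.26 and was called in no line (adjusted p 0.778, 0.513 and 0.204, edgeR). IFNB1, IFNL1 and IFNG have no row in the count table, and IRF7 had at most 9 counts in any library.

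**Figure D4:**
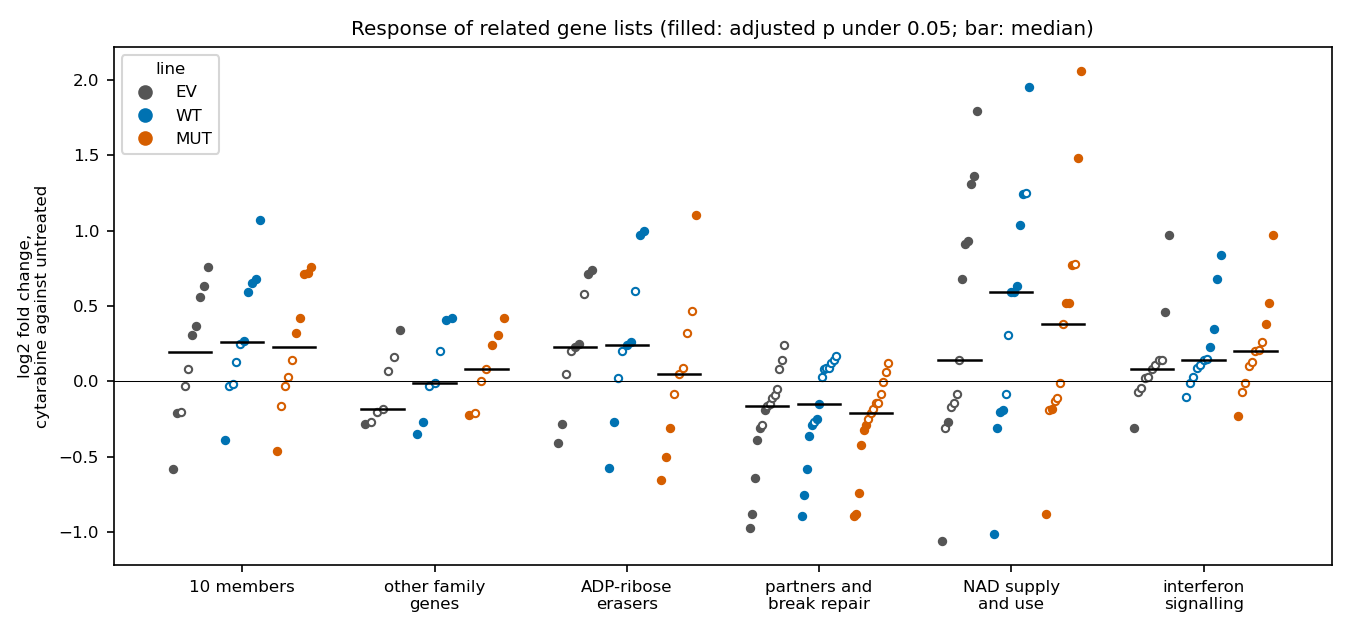
Log2 fold change with cytarabine (vertical axis) of the 10 members and of the tested genes of 5 related lists in EV, WT and MUT, with filled points for an adjusted p under 0.05 and bars for the list median. The break repair list has no filled point above 0, and the points highest above 0 are those of NMNAT2, at 1.79 to 2.06.

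Across the 18 libraries, which share treatment and line, Pearson's r of log2 CPM between members was highest for PARP9 and PARP14 (0.859) and for PARP10 and PARP12 (0.847), and lowest for PARP1 and PARP14 (-0.806). PARP4 reached at most 0.462 with any other member, and PARP2 at most 0.67. Among the 13682 genes whose mean log2 CPM reached 1, those most like PARP1 were FASN (r = 0.986), EIF3A (0.984) and SLC7A2 (0.978). LRP1 (0.989), NUP210 (0.989) and FLG (0.985) were most like PARP14, and CA12 (0.965) and TUBB2B (0.965) were most like PARP10. KIF17 (0.960) was most like PARP9 and ADAM15 (0.935) most like PARP12. PARP2 (0.804, VASH2), PARP4 (0.851, TRIM33), PARP8 (0.867, GAB3) and PARG (0.867, PDE12) had no gene above 0.867. These correlations describe the 18 libraries and carry no test.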

How the data were processed

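RNA of 18 U2OS samples was extracted with Direct-zol and made into libraries with a NEBNext Ultra RNA kit, per the labels' protocols. Per the submitters' processing notes, CASAVA, STAR 2.6.1d and hg38 were used; the counting tool, annotation and strand setting are not given in the sources used here. The authors' deposited table holds estimated counts per gene, not normalized, 70.4% of them whole, which were rounded here. The deposited normalized signal equals 1 plus a library factor times the count (largest relative deviation 7.36e-06) and served only to recover the authors' factors.

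The 18 libraries were fitted together in edgeR 4.0.16 (R 4.3.3) by quasi-likelihood, with 6 group terms, TMM factors and filterByExpr (18226 genes tested), and p-values were adjusted by the Benjamini-Hochberg method over all tested genes, with calls at an adjusted p under 0.05. Log2 CPM used a prior count of 2. SE is the absolute log2 fold change over the square root of F, and intervals are 95%. P-values rest on the spread between replicates, named biological in the labels, as estimated over all 6 groups together and not in the groups compared alone. The biological coefficient of variation was 0.104 over all libraries, against 0.0397 in untreated EV, 0.0398 in untreated WT and 0.216 in untreated MUT. A shared estimate can thus understate the spread of untreated MUT and overstate that of untreated EV and WT. Alternatives were DESeq2 1.42.0, RLE, upper-quartile and authors' factors, no filter, a mean of at least 50 counts, only the groups compared, a replicate block and leaving out each library. Replicate pairs differed by more than counting noise (chi-square per degree of freedom 2.21 to 35.8), so none were merged.

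The members and the 5 lists of related genes were chosen with earlier results of these data known. In each list, the 2 genes with the largest mean rise and the 2 with the largest mean fall among called genes could be named, together with DTX3L, HPF1, TIPARP, ZC3HAV1, TNKS, ADPRHL2, IRF9, NAMPT and XRCC1. For each member the 3 genes of highest r over the 18 libraries could be named. Some genes that these rules name are not reported here. Positions are those of the authors' table on hg38, and promoter windows come from RefSeq on GRCh38.p14.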

Additional observations from a re-analysis of the deposited data

Results flagged for a closer look

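PARP10 was the member whose response to cytarabine differed between lines by the test of the difference itself. Its log2 fold change was 0.42 in MUT and 1.07 in WT, a difference of -0.64 (SE 0.130, adjusted p 0.0256, edgeR), and 1.00% of all tested genes were called in the same contrast. The call was lost in 5 of the 18 fits that left out a library (adjusted p 0.0609 to 0.0816, edgeR). It was also lost in a fit of the compared groups alone (0.0863). GRINA, which overlaps PARP10 on the other strand, had a difference of -0.16 in that contrast (95% interval -0.37 to 0.05), and its part in the PARP10 value was not tested.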

How the results depend on the processing

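The cytarabine calls for PARP1, PARP3, PARP10 and PARP14 in all 3 lines, for PARP9 in WT and MUT and for PARP12 in EV held under all 8 other settings and without each of the 18 libraries. Of 1170 alternative values for 45 single-gene results, 1070 kept their direction and side of the threshold, 63 lost a call, 20 gained one and 17 turned sign. Counts of members moved when the fit held the compared groups alone, to 0 for the difference in effect between MUT and WT (2 members at an unadjusted p under 0.05 in edgeR, and 1 called by DESeq2 on all groups), to 0 for untreated MUT against EV (2 unadjusted, and 2 called by DESeq2), to 7 for untreated WT against EV, to 4 for treated MUT against WT and to 0 for treated MUT against EV (3 unadjusted). Treated MUT against EV also gave 0 with the authors' factors, with no filter and with the replicate block (2 unadjusted in each, edgeR), and 1 in DESeq2. Leaving out single libraries gave 0 to 1 for the differences MUT against EV and MUT against WT, 2 to 4 for untreated MUT against EV, 1 to 5 for untreated WT against EV, 3 to 5 for untreated MUT against WT and 0 to 1 for treated MUT against EV. The shares of all genes that passed in these comparisons under the other settings are not given here, and those of the main fit need not hold for them. The counts thus show how the calls depend on the setting and are no result about the members.

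Sign turned only for values past the threshold under neither setting. With upper-quartile factors and the stricter count filter these were PARP2 in EV (0.05 and 0.03), PARG in WT (0.02 and 0.0023) and PARP4 in WT (0.03 and 0.01), and with upper-quartile factors PARP12 in MUT (0.02). PARP4 in MUT gave -0.0078 with RLE, -0.05 with the authors' factors and -0.008 in DESeq2. Leaving out libraries gave -0.08 to 0.005 for PARP2 in EV, -0.08 to 0.04 for PARG in WT, -0.10 to 0.03 for PARP12 in MUT and -0.11 to 0.14 for PARP4 in MUT. The cause was not tested. The PARP1 share of the summed level per kb in untreated EV was 25.6% with merged exons and 49.7% with MANE Select lengths, chosen after the data were seen.

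Replicate numbers were not used as pairs in the main fit. Same-number correlations of deviations ran from -0.036 to 0.326 and other-number ones from -0.336 to 0.274. With 3 replicates per group these values cannot decide whether the numbers pair the samples. The replicate block changed no other count of members by over 1.5 times. All members reached 10.6 CPM or more in every library, but precision differed, with an SE of the effect in EV of 0.140 for PARP3 against 0.0699 for PARP1, and the wide spread of the untreated MUT libraries limits the comparisons that use them.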
